A study of Mus musculus with 28 samples.

Results

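Chemokines and their receptors were described across lungs of newborn mice that lacked HRas, NRas or both. The genes were chosen by name: each gene whose single symbol in the array's annotation began with Ccl, Cxcl, Cx3cl, Xcl, Ccr, Cxcr, Cx3cr, Xcr or Ackr followed by a digit. This gave 56 of the 22180 genes measured, 34 ligands and 22 receptors, and no measured value entered the choice. Ccr1l1, a gene similar to Ccr1, met the rule by its symbol and was counted among the receptors. Of the 56 genes, 55 had a single row in the table, and the brighter of 2 rows stood for Ccl27a.

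Whole lungs were collected at postnatal day 0 and each of 28 one-colour arrays held RNA of 1 animal. Untreated animals were Control (3 arrays), HRas-KO (3), NRas-KO (3) and DKO, the knockout of both genes (5). Animals of the NAC groups came from mothers given 0.5% N-acetyl cysteine (NAC, an antioxidant and glutathione precursor, at pH 7.4) during pregnancy, with 4 arrays for Control+NAC, 3 for HRas-KO+NAC, 3 for NRas-KO+NAC and 4 for DKO+NAC. The labels describe neither the Control genotype nor the strain, and no tissue-specific deletion is named in them. A treatment note names 3 samples as exposed to NAC while the sample labels mark 14, and the titles of the HRas-KO+NAC arrays do not mention NAC; the sample labels were followed. The series title reports that DKO mice die of severe respiratory distress.

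Chemokines are small secreted proteins that steer leukocytes and some other cells along concentration gradients by binding receptors that signal through Gi proteins. Atypical receptors of the Ackr group bind chemokines without Gi signalling and mostly scavenge them. In the lung, Cxcl12 acts through Cxcr4 on vascular and progenitor cells, while inflammatory chemokines are induced through NF-kB and interferon signalling when neutrophils and monocytes are called in. At birth few lymphocytes have yet settled in the lung.

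The sequences just before the start of 5 members are shown: 4 ligand genes whose windows hold elements by which chemokine genes are known to be induced, and Ackr3, the member that differed in DKO lungs. Each is the 250 bases before the start of the gene, 5′ to 3′ on the gene's strand, from RefSeq (GRCm38.p6), with motif matches in capitals.
Ackr3, chr1:90203730-90203979, strand +: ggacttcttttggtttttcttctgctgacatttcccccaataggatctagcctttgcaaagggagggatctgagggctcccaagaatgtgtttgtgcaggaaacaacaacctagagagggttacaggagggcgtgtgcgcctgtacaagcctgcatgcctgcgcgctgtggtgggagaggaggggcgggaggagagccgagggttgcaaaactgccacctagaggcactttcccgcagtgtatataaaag
Ccl9, chr11:83578637-83578886, strand -: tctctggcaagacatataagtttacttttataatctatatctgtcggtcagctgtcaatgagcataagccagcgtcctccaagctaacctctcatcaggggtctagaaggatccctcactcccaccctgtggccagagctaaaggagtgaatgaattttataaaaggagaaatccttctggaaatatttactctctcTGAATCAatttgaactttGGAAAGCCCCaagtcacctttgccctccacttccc
Cxcl1, chr5:90890995-90891244, strand +: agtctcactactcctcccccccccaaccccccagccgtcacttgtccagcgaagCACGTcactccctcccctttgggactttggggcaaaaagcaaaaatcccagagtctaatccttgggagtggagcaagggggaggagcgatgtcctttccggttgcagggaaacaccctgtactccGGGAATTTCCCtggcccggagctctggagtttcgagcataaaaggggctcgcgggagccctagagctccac
Cxcl2, chr5:90903649-90903898, strand +: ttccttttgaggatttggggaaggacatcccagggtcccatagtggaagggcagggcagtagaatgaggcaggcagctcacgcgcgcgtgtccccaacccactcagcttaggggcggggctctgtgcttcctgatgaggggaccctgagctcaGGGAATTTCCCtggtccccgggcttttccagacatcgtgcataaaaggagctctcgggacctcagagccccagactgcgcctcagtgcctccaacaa
Cxcl10, chr5:92348890-92349139, strand -: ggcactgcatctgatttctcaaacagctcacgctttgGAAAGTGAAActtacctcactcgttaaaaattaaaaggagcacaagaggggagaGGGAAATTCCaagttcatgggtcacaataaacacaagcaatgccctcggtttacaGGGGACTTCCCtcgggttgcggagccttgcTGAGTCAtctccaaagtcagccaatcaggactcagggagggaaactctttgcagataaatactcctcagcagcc
Ackr3 held no match to any motif searched. Ccl9 held an AP-1 match (TGAATCA) 53 to 47 bases before the start. It also held an NF-kB match on the reverse strand, 35 to 26 bases before the start (GGAAAGCCCC as read on the gene's strand). Cxcl1 and Cxcl2, neighbouring genes for neutrophil-attracting ligands, carried the same NF-kB match (GGGAATTTCC, followed by a further C that completes a match on the other strand), and their windows shared a run of 14 bases; Cxcl1 also held a hypoxia-element match. Cxcl10, an interferon-induced ligand, held NF-kB, AP-1 and interferon-type matches (GAAA, any 2 bases, GAAA). Windows were found for 42 of the 56 members (46 windows in all). NF-kB matches, searched on both strands by the factor's decameric consensus, occurred in 23.91% of the members' windows and 7.25% of 32851 windows of all genes. The corresponding shares were 10.87% and 6.75% for AP-1 (TGANTCA), 8.7% and 7.02% for the GAS element (TTCNNNGAA), 4.35% and 2.98% for the interferon type, and 13.04% and 16.57% for the hypoxia element (ACGTG). No match overlapped a match of another motif in the members' windows. Of the 11 members with an NF-kB match, 6 lay in the dim range described next, so the array could follow only part of them. A match is a description of the letters and does not show that a factor binds there.

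Many members gave little signal. The dim range was set as a mean over the 28 arrays under 4.78 on the log2 scale, the 40th percentile of all 41345 rows, and 23 of the 56 members lay in it (14 ligands and 9 receptors). The dim ligands were Ccl1, Ccl8, Ccl12, Ccl17, Ccl22, Ccl24, Ccl26, Cxcl1, Cxcl3, Cxcl5, Cxcl9, Cxcl10, Cxcl11 and Xcl1. The dim receptors were Ackr1, Ackr4, Ccr1l1, Ccr3, Ccr4, Ccr6, Ccr8, Ccr9 and Cxcr6. All 3 interferon-induced CXC ligands and 5 of the 6 ligands of eosinophil and type 2 responses were therefore dim, whereas all 4 homeostatic CC ligands were not. Ccr10 (4.79) and Cxcr1 (4.80) lay just above the limit and Cxcl11 (4.77) and Cxcl1 (4.76) just below it. A dim value says that the probes gave little signal, not that the RNA was absent.

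**Figure D1:**
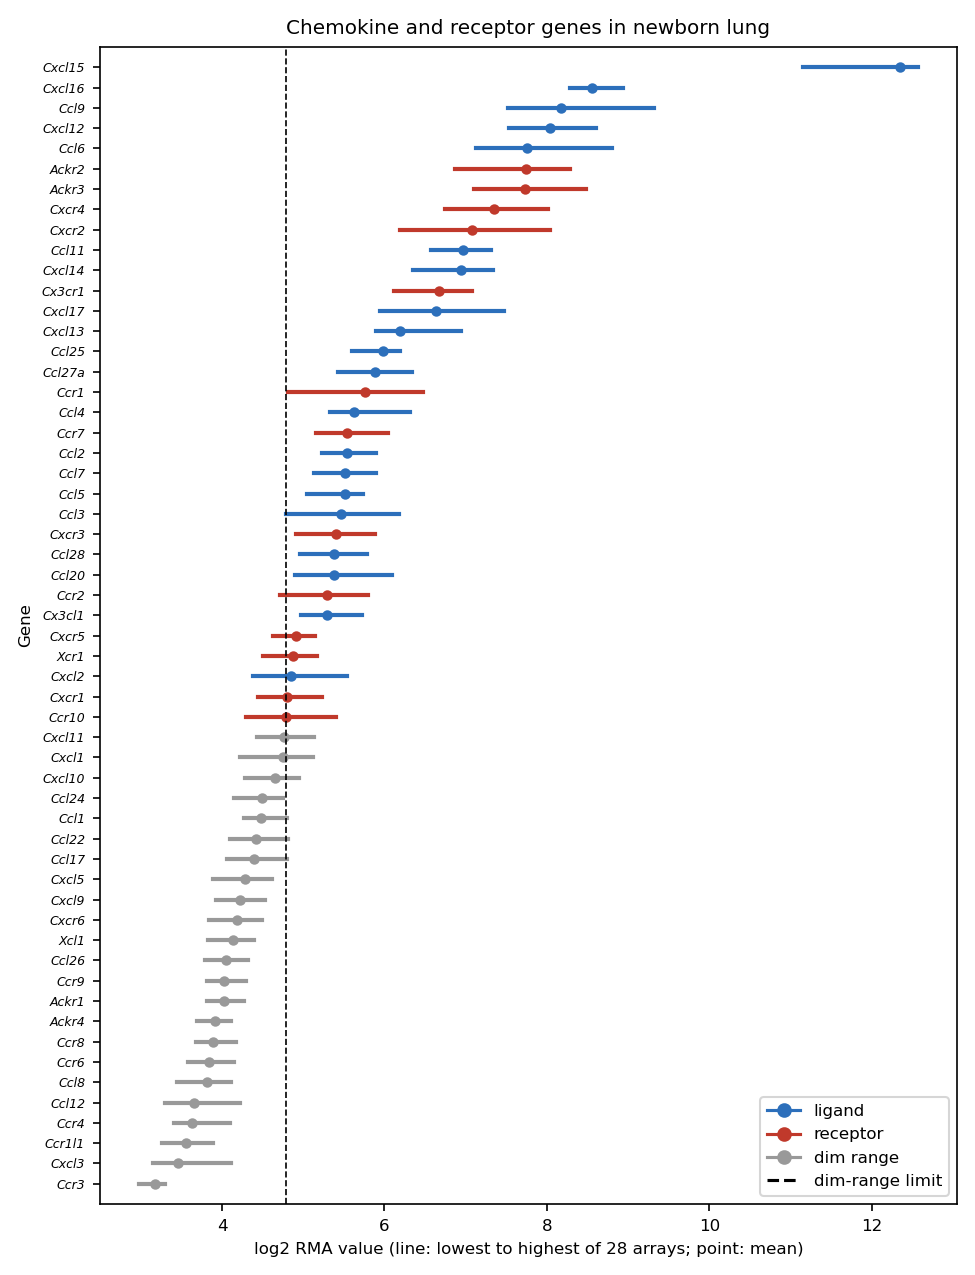
Log2 RMA value of each of the 56 members on the x axis, as the mean (point) and the lowest to highest of 28 arrays (line), with genes on the y axis. Grey marks the 23 members of the dim range to the left of the dashed limit at 4.78, and Cxcl15 stands at the right end. Probes differ in how strongly they bind, so the order of genes is not an order of RNA amounts.

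The tissue label was borne out by Sftpc, the surfactant protein gene of alveolar type II cells, at 13.08 ± 0.08 (SD, n = 3) in Control and 13.14 ± 0.07 (n = 5) in DKO. None of the 6 lung epithelial and 7 macrophage and monocyte markers measured was dim, but 7 of 8 T cell and thymus, 5 of 6 B cell, 3 of 4 dendritic cell and 3 of 4 natural killer cell markers were. Changes in lymphocyte-directed chemokine receptors could thus be followed only weakly. The mean over 4 skeletal muscle genes, a tissue that can come along in dissection, was highest on DKO replicate 1 (1.97 above the gene means), NRas-KO replicate 2 (1.42), DKO replicate 5 (1.25), Control replicate 3 (0.79) and DKO replicate 3 (0.60), and calls of members and of the chemokine pathway genes named that were lost without these 5 arrays are given with that value; cell type markers were not refitted without them. A refit without these 5 arrays lacks DKO replicates 1, 3 and 5 and Control replicate 3, so its groups are smaller and its precision lower. Whether muscle signal or the smaller groups ended a call was not tested. On the array labelled DKO+NAC replicate 4, Nras read 8.08, while the other 3 DKO+NAC arrays read 7.56 to 7.74 and the 4 Control+NAC arrays 8.21 to 8.47. Sample titles hold a code that may mark litters or collections; no start of that code occurred in both untreated and NAC animals, and none of the DKO codes occurred in another group. A DKO or NAC difference and a difference between such collections therefore cannot be told apart. In whole lung, fewer cells of a type and less RNA per cell cannot be told apart either.

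The members changed little. In limma's fit of 8 group means to all 28 arrays, with p-values adjusted by Benjamini-Hochberg over all 22180 genes and a threshold of 0.05, 5 members passed in any comparison: Ackr3, Ccr2, Cxcl17, Ccl9 and Xcr1. DKO against Control called 1 member (1.79%), higher in DKO, where 3.83% of all genes were called (2.48% higher, 1.35% lower). DKO against HRas-KO called 1, also higher, with 5.63% of all genes called (3.3% higher, 2.32% lower). DKO against NRas-KO called 0 members with 4.95% of all genes called (3.2% higher, 1.75% lower), and 8 members (14.3%) had an unadjusted p under 0.05, as did 17.4% of all genes. No member and no gene passed in either single knockout against Control (0% called each). In each, 1 member (1.79%) had an unadjusted p under 0.05, against 0.857% of all genes in HRas-KO and 1.04% in NRas-KO. Nras itself was not called in NRas-KO, although its values (7.77, 7.72 and 7.58) lay below all Control values (8.07, 8.30 and 8.35). A gene without a call may therefore still differ. NAC called 2 members in Control lungs (1 higher and 1 lower, 3.57%), with 13.5% of all genes called (7.86% higher, 5.68% lower). In DKO lungs it called 3 members, all higher (5.36%), with 12.2% of all genes called (5.74% higher, 6.46% lower). In HRas-KO it called 0 members with 11.8% of all genes called (6.73% higher, 5.1% lower), and in NRas-KO 0 with 6.42% (2.86% higher, 3.56% lower); 6 members (10.7%; all genes 24.9%) and 8 members (14.3%; all genes 19.8%) there had an unadjusted p under 0.05. These shares of members lay under or near the background of their comparison. The comparisons share arrays (Control and DKO each enter several), so their lists are not independent of each other.

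Median differences between groups were at most 0.10 in size. The median over the 56 members was -0.04 in DKO against Control (all genes: 0.02), with 22 members above 0 and 34 below, and 3 members did not overlap between the groups (10.2% of all genes did not). It was -0.06 for NAC in Control lungs (all genes: 0.02; 7 members not overlapping, 25.5% of all genes), -0.07 in HRas-KO lungs (0.02; 13 not overlapping, 33.7%), 0.01 in NRas-KO lungs (0.03; 6 not overlapping, 23.6%) and 0.05 in DKO lungs (0.02; 4 not overlapping, 10.3%). The largest was 0.10 for NRas-KO+NAC against Control+NAC (all genes: -0.0044), and the median of the NAC change of the DKO difference was 0.15 (all genes: -0.01), with 38 members above 0 and 18 below. Members without overlap numbered 4 in DKO against HRas-KO (12.8% of all genes), 6 in DKO against NRas-KO (11.6%), 4 in HRas-KO against Control (6.77%) and 3 in NRas-KO against Control (6.34%). Over the 8 groups the means of a member spanned at most 0.92 (Cxcl17), followed by Ccl9 (0.84), Cxcr2 (0.73) and Ccr2 (0.73). The span was over 0.5 in 10 of the 33 members above the dim range and in 0 of the 23 dim ones.

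**Figure D2:**
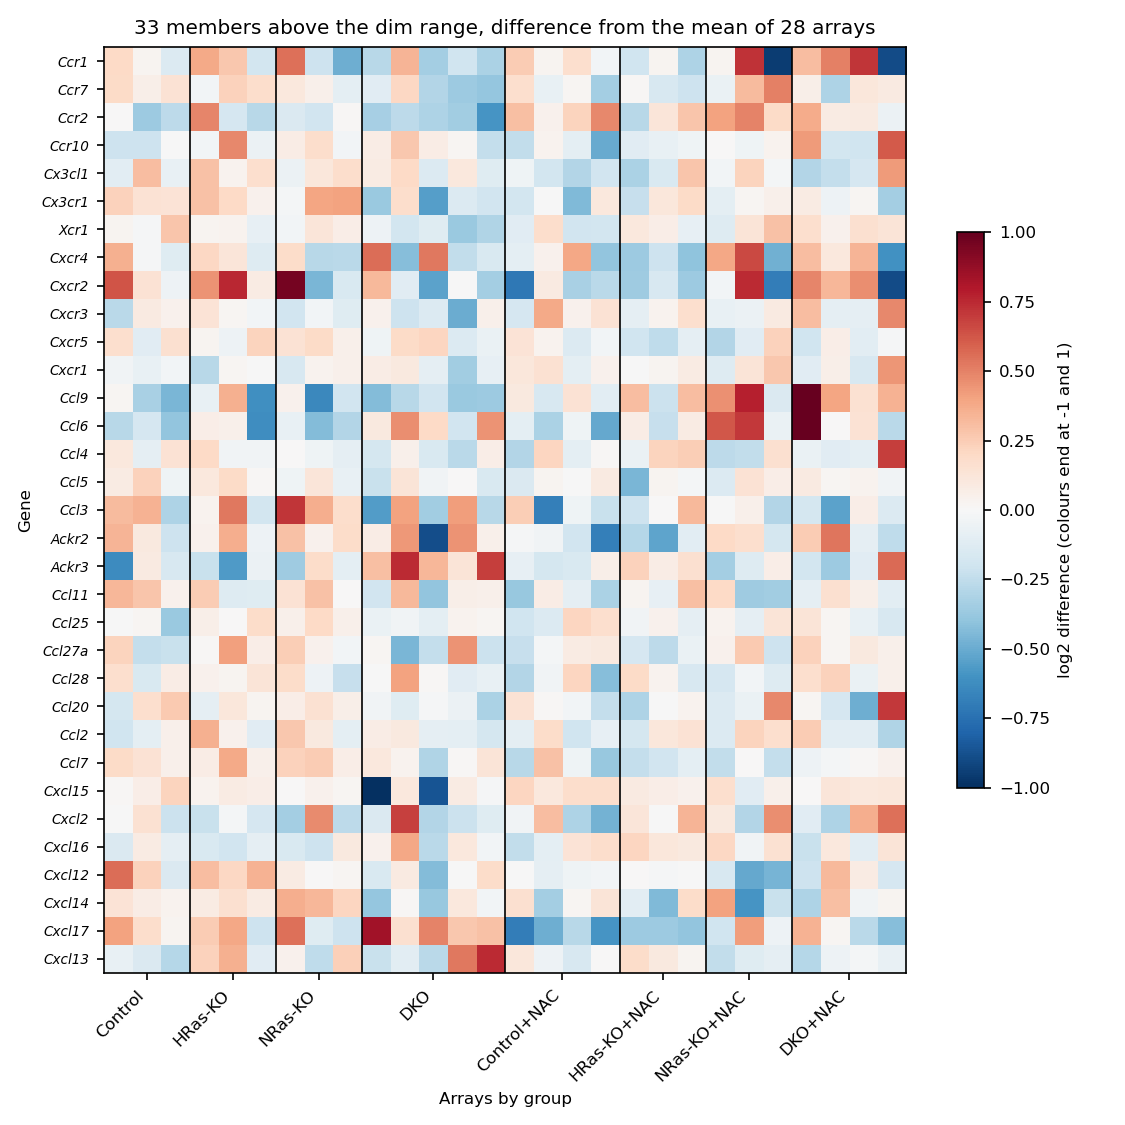
Difference of each log2 value from the gene's mean over 28 arrays (colour) for the 33 members above the dim range (rows, by role) on each array (columns, by group). Colours end at -1 and 1, and 3 of the 924 values lie beyond them; most rows vary between single arrays as much as between groups, with Ackr3 in DKO, Cxcl17 in Control+NAC and Ccl9 in DKO+NAC standing out as blocks.

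The receptor that differed in DKO lungs was Ackr3 (formerly Cxcr7), an atypical receptor that binds and removes Cxcl12 and Cxcl11. Its log2 values were 7.10, 7.82 and 7.58 in Control, 7.51, 7.17 and 7.67 in HRas-KO, 7.38, 7.91 and 7.64 in NRas-KO, and 8.03, 8.47, 8.07, 7.86 and 8.42 in DKO. All 5 DKO values lay above every Control and HRas-KO value, and 1 NRas-KO array (7.91) reached into the DKO range. Ackr3 was 0.67 ± 0.18 (SE) higher on the log2 scale in DKO than in Control, or 1.59-fold (limma adjusted p = 0.036), and 0.72 ± 0.18 higher than in HRas-KO (adjusted p = 0.018). Against NRas-KO the difference of 0.53 ± 0.18 did not pass (adjusted p = 0.096). The single knockouts lay at -0.05 (HRas-KO) and 0.14 (NRas-KO) from Control (limma adjusted p = 1 each).

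The DKO call of Ackr3 was close to the threshold. Against Control its limma adjusted p was 0.29 without Control replicate 1 (difference 0.47), 0.07 without Control replicate 3 (0.71), 0.074 without DKO replicate 2 (0.59), 0.085 without DKO replicate 5 (0.61), and 0.23 without the 5 arrays highest in muscle genes (0.71). Against HRas-KO it was 0.054 without HRas-KO replicate 1 (0.75), 0.15 without HRas-KO replicate 2 (0.58) and 0.11 without the muscle-high arrays (0.72). The difference stayed above 0 in each of these fits.

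With NAC, Ackr3 read 7.65, 7.56, 7.58 and 7.79 in Control+NAC and 7.55, 7.37, 7.62 and 8.30 in DKO+NAC. The highest of these was DKO+NAC replicate 4, the array on which Nras read high, and the other 3 lay under all DKO values. Its title shares a code start with Control+NAC replicate 4 (7.79), HRas-KO+NAC (7.96, 7.81 and 7.89) and NRas-KO+NAC replicate 3 (7.80). All NAC arrays of this code start read above those of other code starts (7.37 to 7.65). The part of the code start in the Ackr3 values was not tested. DKO+NAC lay below DKO (-0.46 ± 0.17), which did not pass (limma adjusted p = 0.071) but did when DKO+NAC replicate 4 or DKO replicate 4 was left out. It differed from Control+NAC by 0.06 ± 0.18 (adjusted p = 0.93). The test of whether NAC changed the DKO difference gave -0.61 ± 0.25 (limma adjusted p = 0.3).

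Neither the ligand nor the signalling receptor of this axis passed in any comparison. Cxcl12, the stromal ligand, read 8.60, 8.27 and 7.90 in Control and 7.89, 8.13, 7.61, 8.03 and 8.22 in DKO, and the groups overlapped (-0.28 ± 0.14, limma adjusted p = 0.32). It read 8.13, 8.04 and 8.06 in NRas-KO and 7.88, 7.53 and 7.58 in NRas-KO+NAC, without overlap (-0.41 ± 0.15, adjusted p = 0.12). Cxcr4, which signals to migration in haematopoietic and vascular cells, read 7.71, 7.34 and 7.23 in Control and 7.91, 6.92, 7.88, 7.10 and 7.19 in DKO. The 2 high DKO arrays, replicates 1 and 3, spread the group, and the difference was -0.02 with a 95% interval of -0.53 to 0.48 (limma adjusted p = 0.98). Ackr2, which scavenges inflammatory CC ligands, did not pass in any comparison either, and Ackr1 and Ackr4 were dim.

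**Figure D3:**
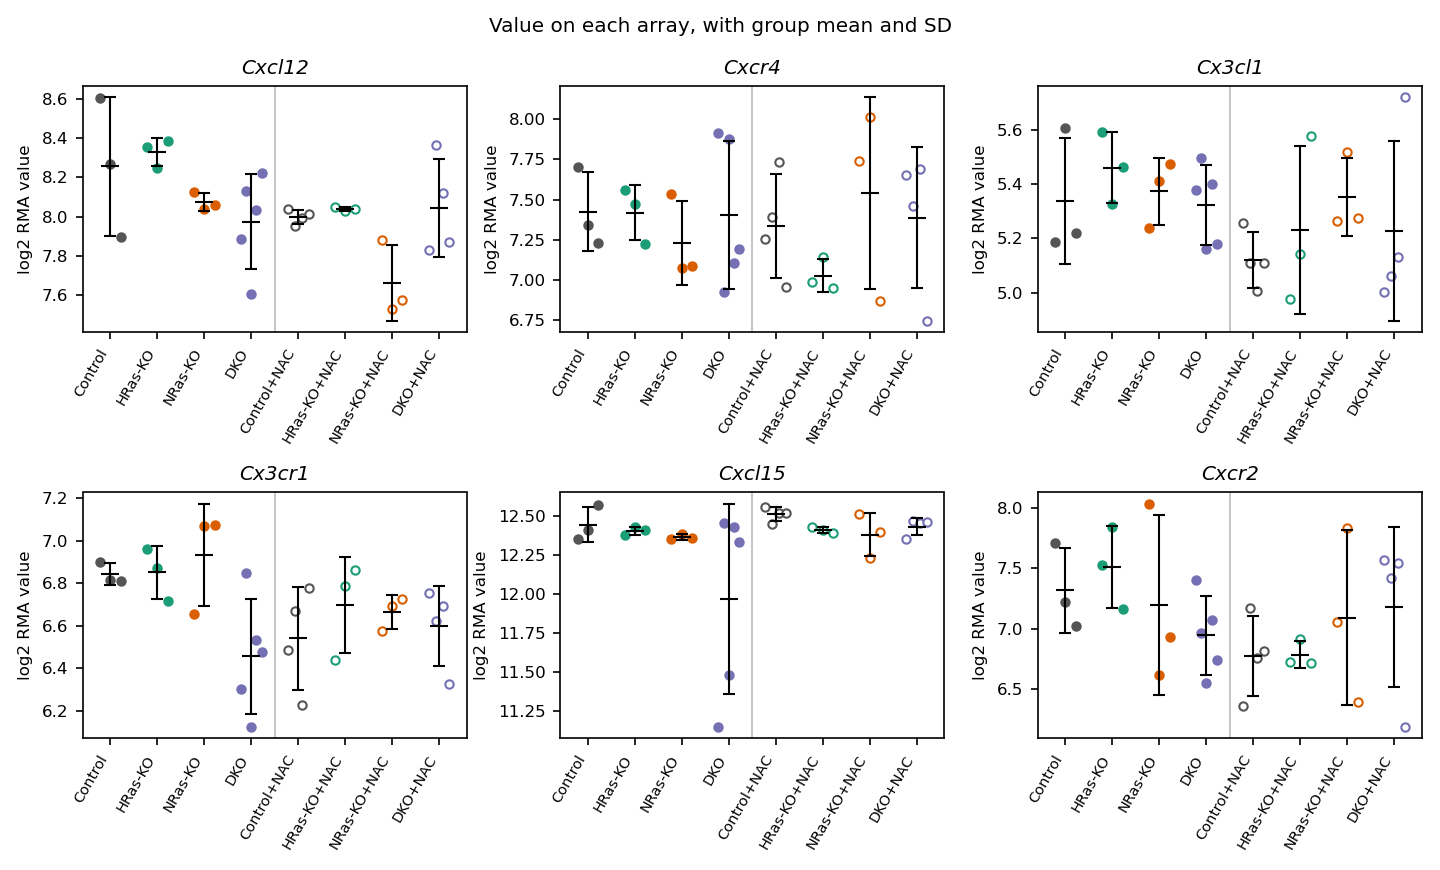
Log2 RMA values of Cxcl12, Cxcr4, Cx3cl1, Cx3cr1, Cxcl15 and Cxcr2 on each array (points; filled untreated, open NAC) with group mean and SD (bars), groups on the x axis. Cxcl15 was low on 2 of the 5 DKO arrays, and Cxcr2 spread widely within groups.

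Among the other CXC ligands, Cxcl17, a mucosal chemokine of airway epithelium, was lower in NAC-exposed Control lungs. It read 7.04, 6.81 and 6.66 in Control and 5.94, 6.14, 6.36 and 6.04 in Control+NAC, without overlap. The difference was -0.71 ± 0.20, 1.64-fold lower (limma adjusted p = 0.015); leaving out Control replicate 1 gave -0.61 (adjusted p = 0.095) and leaving out Control replicate 2 gave -0.73 (0.056). HRas-KO read 6.89, 7.02 and 6.43 and HRas-KO+NAC 6.27, 6.27 and 6.24 (-0.52 ± 0.21, limma adjusted p = 0.11), again without overlap. DKO read 7.47, 6.80, 7.13, 6.90 and 6.93 and DKO+NAC 6.99, 6.66, 6.36 and 6.21, which overlapped (-0.49 ± 0.17, adjusted p = 0.063); this passed without DKO replicate 2 or without DKO+NAC replicate 1. In NRas-KO the difference was -0.02 ± 0.21 (limma adjusted p = 0.98). Scgb1a1, the secretoglobin of club cells in the airway epithelium, was also lower in Control+NAC (-1.25, limma adjusted p = 0.00019). So was Nkx2-1, a lung epithelial transcription factor (-0.49, adjusted p = 0.049). Of the 6 epithelial markers 2 were lower and 0 higher, with a median difference of -0.03, where 5.68% of all genes were lower. The part of these markers in the Cxcl17 difference was not tested. Cxcl13, Cxcl14 and Cxcl16 passed in no comparison.

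The neutrophil-directed CXC ligands did not pass in any comparison. Cxcl15 (lungkine), made by lung epithelium, read between 12.23 and 12.57 on 26 of the 28 arrays, close to the highest value of the table (13.55). DKO read 11.15, 12.45, 11.48, 12.43 and 12.33, so replicates 1 and 3 stood low and the other 3 lay with the remaining groups. The DKO difference from Control was -0.47 ± 0.19 (limma adjusted p = 0.18), and DKO+NAC (12.35, 12.47, 12.45 and 12.46) was 0.46 ± 0.17 above DKO (adjusted p = 0.082), a difference that passed without DKO replicate 2, 4 or 5. Both low arrays belong to the 5 with the most skeletal muscle signal, and whether this moved Cxcl15 was not tested. Cxcr2, a chemokine receptor of neutrophils, varied most within groups of all members (pooled SD 0.49). It read 7.06, 7.83 and 6.39 in NRas-KO+NAC and 7.57, 7.42, 7.54 and 6.19 in DKO+NAC; Ccr1, another receptor of myeloid cells, read 5.78, 6.48 and 4.81 and 6.06, 6.26, 6.47 and 4.86 on the same arrays. NRas-KO+NAC replicate 3 and DKO+NAC replicate 4, whose titles share a code start, were thus low in both receptors. On the HRas-KO+NAC arrays, all of that code start, Cxcr2 read 6.72 to 6.92 and Ccr1 5.45 to 5.78. Control+NAC replicate 4, also of that code start, read 6.81 and 5.73. The part of the code start in these values was not tested.

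The interferon-induced ligands stayed in the dim range and passed in no comparison. Cxcl10 read 4.58, 4.70 and 4.66 in Control and 4.67, 4.61, 4.61, 4.77 and 4.74 in DKO, which overlapped (0.03, 95% interval -0.18 to 0.25, limma adjusted p = 0.93). Among 27 measured genes that induce chemokines (NF-kB, interferon, hypoxia and cytokine genes), 3 fell in DKO and 0 rose. They were Stat2, from 7.86 ± 0.15 (SD, n = 3) in Control to 6.84 ± 0.35 (n = 5) in DKO (limma adjusted p = 0.0015), Irf9, from 8.10 to 7.34 (adjusted p = 0.02), and Irf7, from 7.27 to 6.61 (adjusted p = 0.042). Stat2 and Irf9 form the transcription factor that answers type I interferon, and Irf7 amplifies interferon production. Without the 5 muscle-high arrays Irf9 and Irf7 no longer passed (limma adjusted p = 0.24 and 0.28), and Stat2 did. Irf9 was also lost without Control replicate 1 or DKO replicate 5 (highest adjusted p = 0.17), and Irf7 without Control replicate 1 or 2 or DKO replicate 1, 3 or 5 (highest adjusted p = 0.35).

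Of the CC ligands, Ccl9 was higher in NAC-exposed DKO lungs. Ccl9 is a myeloid ligand of Ccr1. It read 7.74, 7.89, 7.98, 7.80 and 7.81 in DKO and 9.32, 8.56, 8.32 and 8.52 in DKO+NAC, with no overlap. The difference was 0.84 ± 0.20, or 1.79-fold (limma adjusted p = 0.006), and it passed without each of the 9 arrays in turn (0.62 to 0.96, highest adjusted p = 0.041). Without the muscle-high arrays it was 0.83 (limma adjusted p = 0.057). The same NAC difference was 0.25 in Control (adjusted p = 0.53), 0.24 in HRas-KO (0.6) and 0.63 in NRas-KO (0.13), and the test of the NAC change of the DKO difference gave 0.59 ± 0.30 (limma adjusted p = 0.41). Ccl9 did not differ between DKO and Control beyond their spread (-0.07 ± 0.22, adjusted p = 0.93).

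Ccl6, the gene next to Ccl9 and also a Ccr1 ligand, did not pass in any comparison. It read 7.48, 7.59 and 7.36 in Control and 7.85, 8.22, 7.95, 7.56 and 8.20 in DKO, which overlapped at 7.56 (0.48 ± 0.22, limma adjusted p = 0.28). NRas-KO read 7.68, 7.32 and 7.46 and NRas-KO+NAC 8.37, 8.46 and 7.69, without overlap (0.69 ± 0.25, adjusted p = 0.1). DKO+NAC read 8.81, 7.76, 7.90 and 7.48, and its highest array, replicate 1, was also the highest for Ccl9. Ccl3, Ccl4 and Ccl5 passed in no comparison, nor did any of the homeostatic ligands Ccl20, Ccl25, Ccl27a and Ccl28 or the ligands of eosinophil and type 2 responses.

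Ccr2, which brings monocytes out of the bone marrow, was higher with NAC in both Control and DKO lungs. It read 5.30, 4.93 and 5.03 in Control and 5.60, 5.34, 5.52 and 5.78 in Control+NAC, without overlap (0.47 ± 0.16, 1.39-fold, limma adjusted p = 0.043). It read 4.97, 5.04, 4.99, 4.95 and 4.71 in DKO and 5.67, 5.38, 5.39 and 5.24 in DKO+NAC, again without overlap (0.49 ± 0.14, 1.40-fold, limma adjusted p = 0.018). NRas-KO read 5.15, 5.11 and 5.31 and NRas-KO+NAC 5.70, 5.80 and 5.49 (0.47 ± 0.17, adjusted p = 0.094). HRas-KO read 5.79, 5.13 and 5.02 and HRas-KO+NAC 5.02, 5.42 and 5.58, which overlapped (0.03 ± 0.17, adjusted p = 0.95). Whether the NAC difference of HRas-KO departs from that of the other genotypes was not tested, and the test for DKO against Control gave 0.01 ± 0.21 (limma adjusted p = 0.98).

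The calls of Ccr2 were also near the threshold. In Control lungs the limma adjusted p was 0.19 without Control replicate 2 (0.39), 0.11 without Control replicate 3 (0.45), 0.084, 0.067 and 0.12 without Control+NAC replicates 1, 3 and 4 (0.46, 0.49 and 0.40), and 0.13 without the muscle-high arrays (0.45). It was also 0.072 with the title's code start as a random block (0.46). In DKO lungs it was 0.052 without DKO replicate 5 (0.43), 0.082 without DKO+NAC replicate 1 (0.40) and 0.19 without the muscle-high arrays (0.42).

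Where Ccr2 was higher, no measured marker of monocytes and macrophages passed as higher. In Control+NAC 2 of 7 were lower and 0 higher: Ly6c2, a marker of inflammatory monocytes, by -1.05 (limma adjusted p = 0.018) and Cd68, a lysosomal protein of macrophages, by -0.91 (adjusted p = 0.012). The mean over the 7 markers, relative to each gene's mean, ranged from 0.04 to 0.35 in Control and from -0.31 to -0.11 in Control+NAC. In DKO+NAC 1 of 7 was lower (Cd68, -0.67, limma adjusted p = 0.038) and 0 higher, but the median difference of the 7 from DKO was 0.10. The list ranged from -0.43 to 0.23 in DKO and from -0.28 to 0.19 in DKO+NAC. The Ccr2 ligands above the dim range showed no call: Ccl2 differed by 0.03 ± 0.14 (limma adjusted p = 0.91) with NAC in Control and by -0.03 ± 0.12 (adjusted p = 0.92) in DKO. Ccl7 read 5.59, 5.89 and 5.56 in HRas-KO and 5.28, 5.32 and 5.41 in HRas-KO+NAC, without overlap (-0.35 ± 0.13, adjusted p = 0.096), and had the smallest p of all members there; Ccl5 was the third (-0.26 ± 0.12, adjusted p = 0.17).

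Neutrophil markers differed with NAC in DKO lungs in both directions, beside Ccl9. Of 8 measured, Retnlg (1.30, limma adjusted p = 0.0081) and S100a9 (0.84, adjusted p = 0.0099), genes of mature neutrophils, were higher and Elane (-0.40, adjusted p = 0.011), a granule protease of their precursors, was lower. The list mean ranged from -0.39 to -0.10 in DKO and from -0.31 to 0.63 in DKO+NAC. Of 4 skeletal muscle genes 2 were lower and 0 higher in DKO+NAC. The part of either in the Ccl9, Ccr2 and Xcr1 differences was not tested. Without DKO+NAC replicate 4, the array with the high Nras value, all 3 members still passed.

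**Figure D4:**
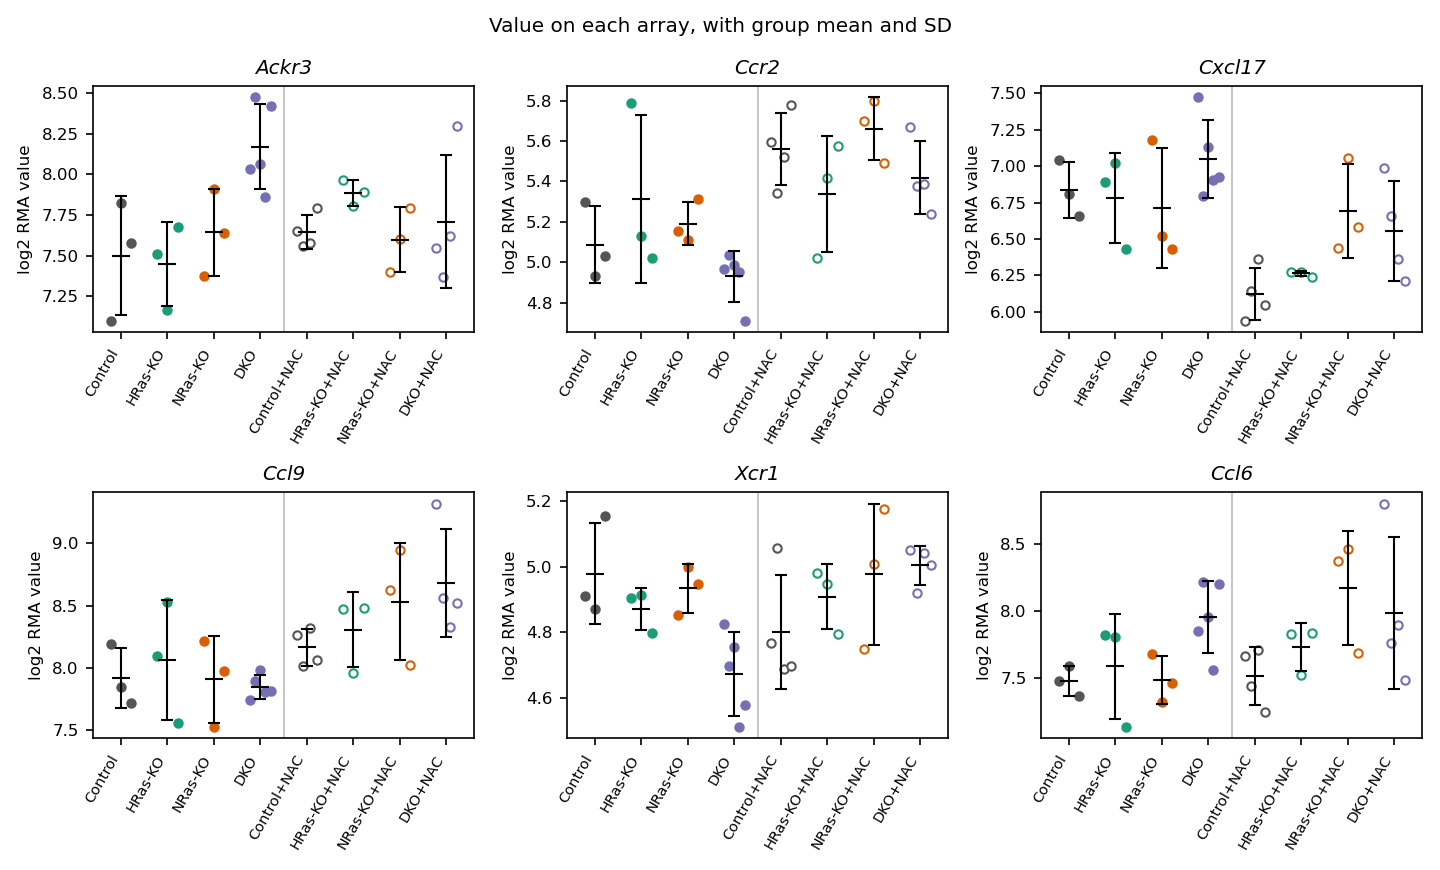
Log2 RMA values on each array (points; filled untreated, open NAC) with group mean and SD (bars) for Ackr3, Ccr2, Cxcl17, Ccl9, Xcr1 and Ccl6, groups on the x axis. All 5 DKO values of Ackr3 lie above the Control values, and all 4 DKO+NAC values of Ccr2, Ccl9 and Xcr1 lie above the DKO values.

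Of the CX3C and XC genes, Xcr1, the receptor that marks cross-presenting dendritic cells, was higher in DKO+NAC than in DKO. It read 4.83, 4.70, 4.76, 4.51 and 4.58 in DKO and 5.05, 4.92, 5.04 and 5.00 in DKO+NAC, without overlap (0.33 ± 0.09, 1.26-fold, limma adjusted p = 0.02). These values lie close to the dim range. The adjusted p was 0.056 without DKO replicate 4 (0.29), and 0.055 and 0.054 without DKO+NAC replicates 1 and 3 (0.32 each). Control read 4.91, 4.87 and 5.16, above all 5 DKO values, but that difference did not pass (-0.31 ± 0.10, limma adjusted p = 0.098). The test of the NAC change of the DKO difference had its smallest member p here (0.51 ± 0.14, limma adjusted p = 0.1), with 0.388% of all genes called (0.117% higher, 0.271% lower), 0 members called and 5 members (8.93%; all genes 13%) at an unadjusted p under 0.05. Both differences contain the same DKO arrays. None of the 4 dendritic cell markers measured passed in DKO+NAC against DKO, and 3 of them were dim. Xcl1, the ligand of Xcr1, was dim and passed nowhere.

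Cx3cr1, the fractalkine receptor of monocytes and macrophages, was lower in DKO than in the other untreated groups on most arrays, without passing. It read 6.90, 6.82 and 6.81 in Control, 6.65, 7.07 and 7.07 in NRas-KO, and 6.30, 6.85, 6.12, 6.53 and 6.48 in DKO. A single DKO array, replicate 2, lay within the range of Control. The difference was -0.48 ± 0.14 from NRas-KO (limma adjusted p = 0.053), -0.39 ± 0.14 from HRas-KO (adjusted p = 0.12) and -0.39 ± 0.14 from Control (adjusted p = 0.15). When DKO replicate 2 was left out, Cx3cr1 passed against Control, HRas-KO and NRas-KO, and 1, 2 and 1 members were called. Cx3cl1, its membrane-bound ligand on endothelium and epithelium, read 5.19, 5.60 and 5.22 in Control and 5.38, 5.50, 5.16, 5.40 and 5.18 in DKO (-0.01 ± 0.14, limma adjusted p = 0.98).

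Within the NAC groups no member passed between genotypes. DKO+NAC, HRas-KO+NAC and NRas-KO+NAC against Control+NAC each called 0 members and 0% of all genes with limma, and 6, 4 and 12 members (10.7%, 7.14% and 21.4%) had an unadjusted p under 0.05, as did 9.54%, 6.35% and 10.5% of all genes. Of the 56 members, 5, 6 and 9 did not overlap, where 4.29%, 7.03% and 7.91% of all genes did not. The unadjusted shares in DKO+NAC and HRas-KO+NAC lay near those of all genes. That of NRas-KO+NAC and the counts without overlap were larger shares of the members than of all genes, but nothing passed. The smallest p in DKO+NAC were those of Ccl24 (0.24), Ccr6 (0.24), both dim, and Ccl9 (0.52, limma adjusted p = 0.44). In HRas-KO+NAC they were Cxcr6, Ccl8 and Ackr4, all dim (-0.35, -0.32 and -0.21, adjusted p = 0.53 to 0.72), and in NRas-KO+NAC Cxcl11 (0.42) and Ccl24 (0.26), both dim, and Cxcl17 (0.57, adjusted p = 0.31). Without NAC, the smallest p in HRas-KO against Control were those of Ccr8 (0.23), Ccl25 (0.20) and Cxcl13 (0.33), and in NRas-KO against Control those of Ccl17 (-0.31), Ccl25 (0.22) and Cxcr6 (-0.18), with a limma adjusted p of 1 for each.

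**Figure D5:**
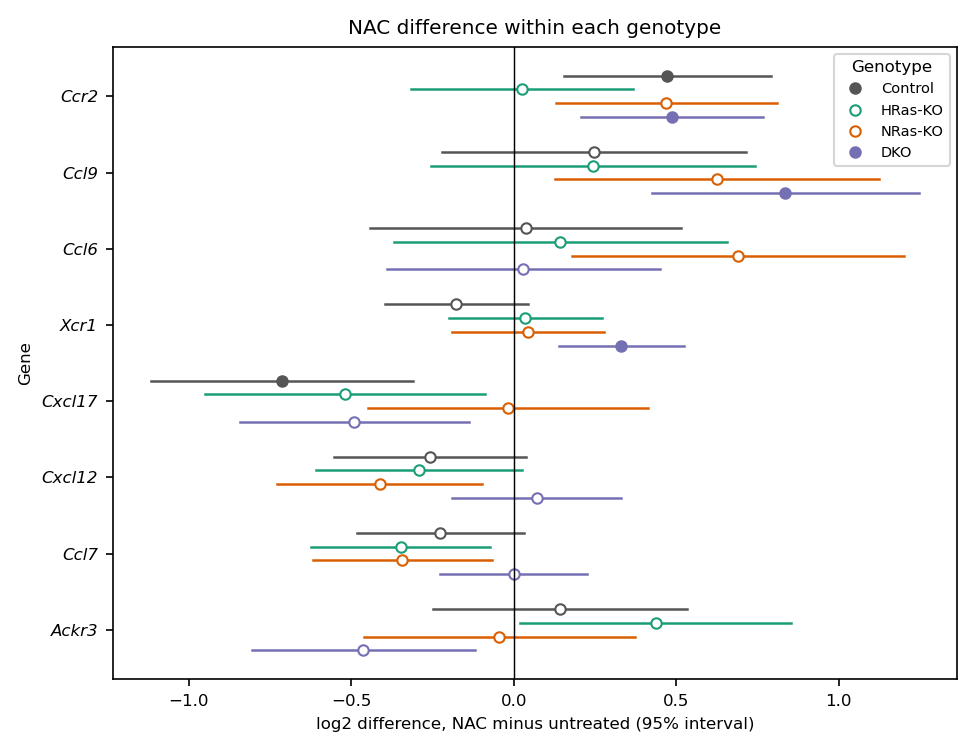
NAC minus untreated log2 difference (x axis; point, with 95% interval as a line) in each of 4 genotypes (colours) for 8 members (y axis); filled points passed limma's adjusted p under 0.05. Ccr2 and Cxcl17 passed in Control and Ccr2, Ccl9 and Xcr1 in DKO, and Ccl9 lies above 0 in all 4 genotypes.

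Genes outside the choice of members that act with chemokines were taken from lists. Of 7 measured relatives outside the symbol rule, Ccrl2, which presents chemerin and does not signal, was the 1 that rose in DKO against Control, from 6.99 ± 0.24 (SD, n = 3) to 8.02 ± 0.38 (n = 5; limma adjusted p = 0.0082), and 0 fell. In DKO+NAC against DKO 3 of the 7 fell: Ccrl2 (-0.80, limma adjusted p = 0.0088), Mif, a cytokine that also binds Cxcr2 and Cxcr4 (-1.10, adjusted p = 0.021), and Pitpnm3 (-0.54, adjusted p = 0.017). Without the muscle-high arrays Ccrl2 differed by 0.60 in DKO against Control (limma adjusted p = 0.41) and by -0.52 in DKO+NAC against DKO (adjusted p = 0.22), and Pitpnm3 differed by -0.39 in the latter (adjusted p = 0.21). Leaving out single arrays ended the DKO call of Ccrl2 (without Control replicate 3, adjusted p = 0.054). It also ended those of Pitpnm3 (DKO replicate 1 or DKO+NAC replicate 1; highest adjusted p = 0.078) and Mif (DKO replicate 2, 4 or 5 or DKO+NAC replicate 1 or 4; highest 0.083).

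Of 27 receptor signalling genes, Arrb2 fell and Rgs2 rose in DKO against Control. Arrb2, the beta-arrestin 2 that Ackr3 and other receptors recruit, went from 6.67 ± 0.10 (SD, n = 3) to 6.01 ± 0.15 (n = 5; limma adjusted p = 0.00049), and Rgs2, an inhibitor of G proteins, rose by 0.82 (adjusted p = 0.017). Without the muscle-high arrays Arrb2 still passed and Rgs2 differed by 0.33 (limma adjusted p = 0.65); Rgs2 was also lost without any 1 of the 3 Control arrays (highest adjusted p = 0.084). In DKO+NAC against DKO 3 of the 27 rose and 1 fell. Gnai3, a Gi subunit used by chemokine receptors, rose by 0.67 (limma adjusted p = 6.2e-05), and it also rose with NAC in Control (0.63), HRas-KO (0.68) and NRas-KO (0.61). Rgs18 (0.59, adjusted p = 0.0069) and Arrb2 (0.31, adjusted p = 0.031) rose and Rgs2 fell (-0.78, adjusted p = 0.0051). Without the muscle-high arrays these 3 did not pass: Rgs18 differed by 0.54 (limma adjusted p = 0.088), Arrb2 by 0.22 (adjusted p = 0.33) and Rgs2 by -0.28 (adjusted p = 0.43). Arrb2 was also lost without DKO replicate 4 or 5 or DKO+NAC replicate 2 or 3 (highest adjusted p = 0.13). Of 23 genes of leukocyte capture and egress, 1 rose and 0 fell in DKO against Control (Jam2, a junctional adhesion molecule of endothelium, 0.62, limma adjusted p = 0.0095), and in DKO+NAC against DKO Itgb1 rose (0.41, adjusted p = 0.0075) and Jam2 fell (-0.46, adjusted p = 0.016; up to 0.057 without DKO replicate 1 or DKO+NAC replicate 3). Of the 27 inducers, 4 rose and 2 fell with NAC in Control, among them Hif1a (0.54, limma adjusted p = 0.0024), Il1r1 (0.47, adjusted p = 0.024), Stat2 (-0.83, adjusted p = 0.0039) and Rela, the p65 subunit of NF-kB (-0.59, adjusted p = 0.012). Rela was lost without Control replicate 1 or 2 (highest adjusted p = 0.09), and Il1r1 without these or Control+NAC replicate 3 (highest 0.12).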

How the data were processed

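The deposited values are log2 probe set signals, which the authors made by RMA (background correction, quantile normalization and a summary over a set's probes); RMA and affy are named in the submitters' processing notes, and their versions are not given in the sources used here. It is unknown whether the 28 arrays went through RMA jointly. Medians of single arrays ran from 5.25 to 5.41. Precision is limited by the number of arrays. Per the labels each array held 1 animal. Rows were named through the platform annotation (23521 with 1 symbol, 1814 with several and 16010 unlisted). Rows with several symbols stood for no member, and the brightest row with 1 symbol stood for a gene. limma 3.58.1 in R 4.3.3 (lmFit and eBayes, with 20 residual degrees of freedom and 5.95 from the prior) fitted 8 group means in 1 model and 13 comparisons, with Benjamini-Hochberg adjustment over 22180 genes; it was tested on simulated data. Named genes were 9 fixed members (Cxcl12, Cxcr4, Ackr3, Cx3cl1, Cx3cr1, Ccl2, Ccr2, Cxcl15, Cxcl10), called members or else the 3 with the smallest p, and up to 4 genes of a list; Cxcr2 and Ccr1, and Ccl6 in the comparisons where it is not among those, were described after their values were seen. Members and lists (157 of 181 list genes measured) were chosen with earlier results of these data known. Motifs were searched in the 250 bases before RefSeq starts. Alternatives changed rows, filter, normalization, moderation, weights, blocks and arrays. Hras was not analysed here.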

Additional observations from a re-analysis of the deposited data

Results flagged for a closer look

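Among 36 groups of 4 or 5 arrays examined for 12 named members, 2 held an array far from the others by Dixon's test, where chance gives about 5% of groups. Ccr2 read 4.71 on DKO replicate 5 and 4.95 to 5.04 on the other 4 DKO arrays. Cxcl15 read 12.35 on DKO+NAC replicate 1 and 12.45 to 12.47 on the other 3 DKO+NAC arrays.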

How the results depend on the processing

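No count or named difference reversed. DKO against Control (1 member called) and DKO against HRas-KO (1) each gave 0 with only the arrays compared, with the replicate number as a block and without the 5 muscle-high arrays, and DKO against Control also 0 with all rows tested. DKO against HRas-KO gave 3 with array weights; DKO against NRas-KO (0) gave 2 with array weights and 1 (Cx3cr1) without the dimmest 40% of rows. NAC in Control (2) gave 1 with all rows, with the replicate block, with the code start as a random block and at 1.5-fold; Ccr2 was the member lost (adjusted p 0.06, 0.054 and 0.072 in the first 3). NAC in HRas-KO (0) gave 2 with array weights and 3 with only its arrays; in NRas-KO (0), 1 (Ccl6) with the replicate block; in DKO (3), 1 without the muscle-high arrays and 1 at 1.5-fold. The causes were not tested. Leaving out 1 array gave 0 to 1 called members for DKO against Control, 0 to 1 against NRas-KO and 0 to 2 against HRas-KO. For NAC it gave 0 to 3 in Control lungs, 0 to 0 in HRas-KO lungs, 0 to 2 in NRas-KO lungs and 2 to 5 in DKO lungs, and for the NAC change 0 to 1. The 3 comparisons with Control+NAC and both single knockouts gave 0 under every alternative run. Replicate numbers did not pair arrays (mean correlation of deviations 0.021 over 37 pairs). Arrays that share a code start correlated more (mean 0.146 over 28 pairs, 15 of them over 0.1; mean -0.035 for other pairs). With the replicate number as a block, Ackr3 (DKO against Control) had a limma adjusted p of 0.13. Ccr2 (0.06) and Xcr1 (0.054) in NAC against untreated DKO were also lost with the replicate block. The code start could be fitted as a fixed block in 5 comparisons. The muscle-high and low-Cxcl15 arrays were left out as alternatives chosen after seeing the data. Dim members (23) limit what could be followed.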

Other observations

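Rows that the annotation assigns to several gene symbols were outside the choice of members. Among them, 9 rows of the Ccl21 genes, whose product draws dendritic cells and T cells into lymphatic vessels through Ccr7, had means of 9.13 to 9.67 on the log2 scale. In DKO against Control they differed by -0.72 to -0.66, and 3 of the 9 passed limma's adjusted p over all rows. The NAC change of that DKO difference was 0.50 to 0.69, and 0 of 9 passed. Several of these rows hold identical values, so they are not separate measurements, and the gene copies cannot be told apart. The 13 rows of Ccl19, the other Ccr7 ligand, passed in 0 comparisons. Of 11 rows that list a Ccl27 gene among several symbols, 1 was higher in DKO against NRas-KO (range of the 11 rows -0.30 to 0.92), and 1 was higher and 1 lower in DKO+NAC against DKO. The lowest mean over 28 arrays among these rows (5.89) was the same as that of the member Ccl27a. Not all of them are therefore measurements separate from that member. Members next to each other in RefSeq's gene order formed 22 adjacent pairs, among them Ccl9 and Ccl6, and Cxcr2 and Cxcr1.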
